A study of Mus musculus with 16 samples.

Results

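Toll-like receptors are the germline-encoded sensors with which innate immune cells detect microbial products and the nucleic acids of damaged cells, and 10 of their genes (*Tlr1* to *Tlr9* and *Tlr13*) were followed in hamstring muscle of mice injected with histidyl-tRNA synthetase (HRS), the self protein that induces myositis in this model. The members were the rows of the deposited table that carried these symbols, 10 of 26382 genes. Bulk poly(A) RNA had been sequenced from 16 libraries of 9 mice, all female C57BL/6 animals aged 8 to 10 weeks and killed 14 days after injection. In m862 to m866 the left hamstring received recombinant murine HRS at 3–5 mg/mL (5 HRS legs) and the right hamstring phosphate-buffered saline (5 contralateral PBS legs). Both legs of m867 and m868 received saline (4 PBS-only libraries), and m860 and m861 gave 1 library each of a group whose titles name a fusion of HRS with maltose-binding protein at 2–3 mg/mL (HRS-MBP), although their treatment label is the same as that of the HRS legs. The injected volume was 50 µL per side. The protocol describes injection of both hamstrings, whereas the titles give HRS to 1 leg only, and the titles were followed. Which leg the HRS-MBP libraries came from, and which of 3 sequencing platforms read which library, is not given in the sources used here.

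The receptors divide by where they sit and what they bind. At the cell surface, TLR2 pairs with TLR1 or TLR6 to bind bacterial lipopeptides, TLR4 with its partner MD-2 binds lipopolysaccharide, and TLR5 binds flagellin. In endosomes, TLR3 binds double-stranded RNA, TLR7 and TLR8 single-stranded RNA, TLR9 unmethylated CpG DNA and TLR13, which mice have and humans lack, bacterial ribosomal RNA. Ligand binding recruits the adaptors MyD88 or TRIF, and the kinases downstream activate NF-κB and interferon regulatory factors. Monocytes, macrophages and dendritic cells express most of the family, whereas resting skeletal muscle is known for low levels.

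The values were normalized counts, a linear signal that the authors had scaled per library. The depth implied by the value of 1 read lay between 37.3 and 73.9 M reads (megareads) in the HRS legs, 24.7 and 72.8 in the contralateral legs, 8.60 and 40.7 in the PBS-only legs and 37.3 and 39.6 in the HRS-MBP libraries, so that 3 reads were worth between 0.0324 and 0.364 normalized counts. The HRS leg of m866 stood apart from the other HRS legs, with a summed level of 10 macrophage and monocyte markers of 1053 against 2279 to 5278, of 5 fibroblast markers of 1894 against 10639 to 18402, and of 6 muscle fibre markers of 152938 against 36561 to 89617. The calls of the members and their differences to the contralateral legs are therefore also given without both legs of this mouse. In the PBS libraries muscle fibre markers summed to between 109152 and 176975, so the labelled tissue's markers were present, and the contralateral leg of m866 was the lowest of them. The libraries of bulk tissue do not tell more cells of a type apart from more RNA per cell.

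Every one of the 10 receptor genes was higher in the HRS legs than in the contralateral PBS legs. In the limma fit on log2(normalized count + 0.5), 10 of 10 members passed an adjusted p of 0.05 with a log2 difference over 1, the rule for a call throughout, and all were higher, whereas 16.9% of the 16414 genes tested were called higher. The log2 differences lay between 1.01 and 4.14 with a median of 2.29, beside a median of 0.08 for all genes tested. For 9 members the lowest HRS leg lay above the highest contralateral leg, a separation that 18.3% of all genes showed, and *Tlr5* was the exception. Against the PBS-only legs 10 of 10 members were again called higher, beside 18.9% of all genes, and 9 were separate from every PBS-only leg (26.6% of all genes), with log2 differences between 1.10 and 4.38 and a median of 2.77. Without both legs of m866, 10 of 10 were called in each comparison, and the log2 differences to the contralateral legs were 4.41 for *Tlr1*, 3.72 for *Tlr2*, 1.54 for *Tlr3*, 2.04 for *Tlr4*, 1.36 for *Tlr5*, 2.41 for *Tlr6*, 2.61 for *Tlr7*, 2.78 for *Tlr8*, 3.56 for *Tlr9* and 4.48 for *Tlr13*. Without that mouse 5222 of the 16414 genes were called in either direction against the contralateral legs, and 5112 against the PBS-only legs. With all libraries these counts were 3810 and 4063. The 2 comparisons share the HRS legs, and the 4 PBS-only legs came from 2 mice. With those legs averaged per mouse, 10 of 10 members were called as well, beside 3834 of all genes in either direction.

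**Figure D1:**
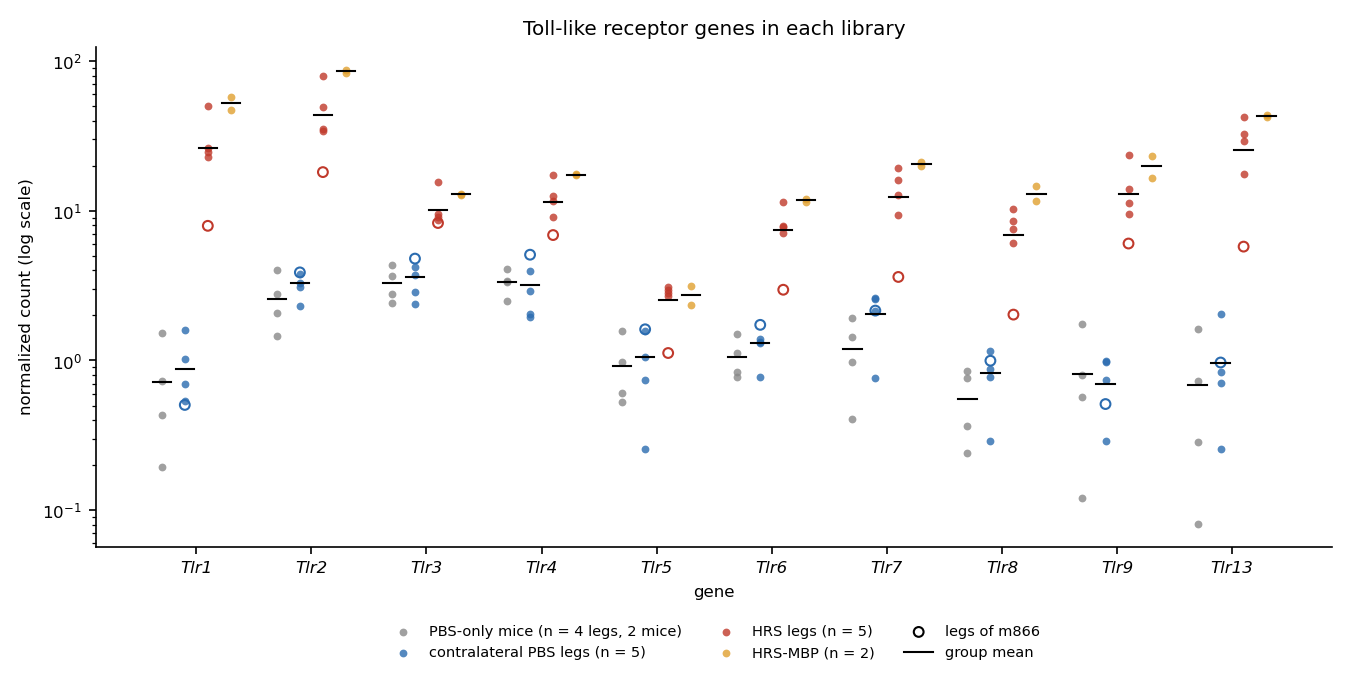
Normalized count (log axis) of each Toll-like receptor gene (x axis) in each of the 16 libraries, coloured by group, with black bars for the group means and open circles for the 2 legs of m866. For 9 genes every HRS leg sits above every PBS library, and for *Tlr5* the HRS leg of m866, at 1.12, falls among the PBS legs.

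*Tlr2*, the shared partner of the lipopeptide receptors, had the highest mean per kilobase of exon of the members in every group. The gene lies at chr3:83836272-83841767 on the minus strand (GRCm38). Its normalized counts in m862 to m866 were 35.3, 49.5, 80.0, 34.0 and 18.1 in the HRS legs and 2.31, 3.30, 3.79, 3.09 and 3.88 in the contralateral legs. The right and left PBS-only legs held 2.79 and 1.46 in m867 and 4.003 and 2.09 in m868, and the HRS-MBP libraries 83.4 and 87.6. The lowest HRS leg was thus 4.68 times the highest contralateral leg. The mean was 43.4 ± 23.3 (SD, n = 5) in HRS legs against 3.27 ± 0.632 (SD, n = 5), a log2 difference of 3.40 ± 0.31 (SE; limma adjusted p = 1.96e-06).

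*Tlr1*, which pairs with *Tlr2* for triacylated lipopeptides, showed the largest difference of the family to the contralateral legs when all mice were included, although *Tlr13* was higher without both legs of m866 (4.48 against 4.41), with array quality weights (4.51 against 4.25) or without the contralateral leg of m864 (4.23 against 4.19), and also against the PBS-only legs (4.38 against 4.36), all on the log2 scale. It measured 23.0, 24.7, 50.1, 26.3 and 7.94 in the HRS legs of m862 to m866 and 0.539, 1.59, 1.02, 0.7002 and 0.505 in their contralateral legs. The PBS-only legs ranged from 0.196 to 1.53, and the HRS-MBP libraries gave 58.0 and 47.4. All 5 mice carried more *Tlr1* in the HRS leg, by 15.5-fold to 48.9-fold. The log2 difference to the contralateral legs was 4.14 ± 0.39 (SE; limma adjusted p = 2.30e-06).

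*Tlr6*, the partner for diacylated lipopeptides, moved less. The HRS legs held 7.12, 7.75, 11.4, 7.89 and 2.97 and the contralateral legs 0.775, 1.40, 1.33, 1.2996 and 1.73, with 0.775 to 1.51 in the PBS-only legs and 11.4 to 12.1 in HRS-MBP. The groups did not overlap, and the log2 difference was 2.05 ± 0.26 (SE; limma adjusted p = 2.61e-05). Per kilobase of exon the ratio of *Tlr1* to *Tlr6* lay between 2.98 and 4.89 in the HRS legs and between 0.325 and 1.27 in the contralateral legs, so that *Tlr6* was the more abundant partner in 4 of 5 contralateral legs and in 0 of 5 HRS legs. The ratio was 0.281 to 1.13 in the PBS-only legs and 4.62 to 5.35 in HRS-MBP.

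*Tlr1* and *Tlr6* are neighbouring genes on the minus strand of chromosome 5, at chr5:64924679-64933563 and chr5:64952031-64960097, with 18.5 kb between them. Their transcripts share 454 words of 50 bases, 13.6% of those of *Tlr1* and 12.3% of those of *Tlr6*, and of the 45 pairs of members no other pair shared any. The longest identical stretch ran over 229 bases, all coding, at chr5:64925537-64925765 in *Tlr1* and chr5:64953828-64954056 in *Tlr6* (GENCODE M21, GRCm38), and is printed because a read that falls wholly within it cannot be assigned to either gene.
Tlr1 and Tlr6 shared stretch: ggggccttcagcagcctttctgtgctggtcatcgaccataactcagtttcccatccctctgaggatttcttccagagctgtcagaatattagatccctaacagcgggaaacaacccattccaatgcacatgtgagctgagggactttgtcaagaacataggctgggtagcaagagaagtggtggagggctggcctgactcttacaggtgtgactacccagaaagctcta
In the 9 PBS libraries the values of the other 8 members were each worth a whole number of reads (within 0.02), but those of *Tlr1* and *Tlr6* were whole in 0 of 9, while their sum was whole in 9 of 9. In the left leg of m867, for example, *Tlr1* was worth 4.84 reads and *Tlr6* 19.2, together 24. The deposited values of the PBS libraries had therefore divided some reads between the genes. In the HRS legs, whose values were worth more reads, the sum lay 0.00096 to 0.158 from a whole number. In the HRS leg of m865 both genes were whole within 0.02. Added into 1 row, which avoids the division, *Tlr1* and *Tlr6* gave 10.9 to 61.5 in the HRS legs and 1.31 to 2.98 in the contralateral legs. The log2 difference of that row was 3.52 ± 0.35 (SE; limma adjusted p = 3.04e-06). The separate levels of the partners, and the ratio between them, depend on that division.

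*Tlr4*, the lipopolysaccharide receptor (chr4:66827584-66930284, plus strand), was among the more abundant members per kilobase in PBS muscle, with a smaller difference than *Tlr2*. The HRS legs of m862 to m866 held 9.05, 12.6, 17.3, 11.6 and 6.89, and the contralateral legs 2.05, 3.97, 1.94, 2.91 and 5.09. The PBS-only legs ranged from 2.51 to 4.11. All HRS legs lay above all PBS legs, but in m866 the legs differed by only 1.35-fold. The log2 difference was 1.71 ± 0.25 (SE; limma adjusted p = 7.88e-05). The ratio of *Tlr2* to *Tlr4* per kilobase was 4.85 to 8.501 in the HRS legs and 1.40 to 3.60 in the contralateral legs.

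*Tlr5*, the flagellin receptor (chr1:182954788-182976044, plus strand), showed the smallest difference. The HRS legs held 2.84, 3.08, 2.97, 2.69 and 1.12 and the contralateral legs 0.256, 1.58, 0.739, 1.06 and 1.62, with 0.526 to 1.56 in the PBS-only legs. In 4 of 5 mice the HRS leg was higher, by 1.94-fold to 11.1-fold, and in m866 it was at 0.694 of the PBS leg. The log2 difference of 1.01 ± 0.30 (SE; limma adjusted p = 0.00967) stood just past the threshold of 1. With the mouse as a replicate block it was 1.01 at an adjusted p of 0.0522, and under quantile normalization 0.60 at an adjusted p of 0.0603, so the call did not hold in either. The call was also lost at 0.78 without the contralateral leg of m862, and at 0.94 to 0.98 without any of the HRS legs of m862 to m865 or, at 0.95, without the contralateral leg of m864. Against the PBS-only legs the call was lost at 0.96 without the left leg of m867 and at 0.9998 without the right leg of m868, and in HRS-MBP against PBS-only legs at 1.42 (limma adjusted p = 0.0537) without m860 and at 1.06 (limma adjusted p = 0.130) without m861.

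The endosomal receptors *Tlr9* and *Tlr13* rose from near the lower end of the family's levels per kilobase. *Tlr9* (chr9:106222598-106226883, plus strand) measured 9.54, 11.2, 23.7, 13.9 and 6.05 in the HRS legs of m862 to m866 and 0.288, 0.989, 0.970, 0.735 and 0.512 in the contralateral legs. Its lowest HRS leg was 6.11 times its highest contralateral leg, the widest gap of the 10 members, and the log2 difference was 3.38 ± 0.35 (SE; limma adjusted p = 4.55e-06). *Tlr13* (chrX:106143204-106160493, plus strand) measured 17.6, 29.3, 42.5, 32.6 and 5.76 in the HRS legs and 0.256, 0.840, 2.03, 0.706 and 0.969 in the contralateral legs. Within mice its ratio ran from 5.95 in m866 to 68.5 in m862, and the log2 difference was 4.002 ± 0.474 (SE; limma adjusted p = 1.33e-05). The *Tlr9* value of 0.121 in the right leg of m868 was worth 1 read and the *Tlr13* value of 0.0809 in the left leg of m867 was worth 2 reads, both below the floor of 3 reads.

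*Tlr7* and *Tlr8*, the receptors for single-stranded RNA, are neighbours on the minus strand of the X chromosome (chrX:167304929-167330558 and chrX:167242696-167264329), 40.6 kb apart. *Tlr7* held 9.42, 12.8, 16.2, 19.4 and 3.61 in the HRS legs and 0.769, 2.60, 2.12, 2.56 and 2.15 in the contralateral legs. *Tlr8* held 6.13, 7.55, 10.2, 8.49 and 2.03 in the HRS legs and 0.288, 0.775, 1.15, 0.882 and 0.996 in the contralateral legs. Neither gene's groups overlapped, and the log2 differences were 2.21 ± 0.39 for *Tlr7* and 2.38 ± 0.33 for *Tlr8* (SE; limma adjusted p = 0.000339 and 5.63e-05). Of the 45 pairs of members these neighbours had the highest correlation of their deviations from the 4 group means, a Pearson r of 0.90 over 16 libraries, and *Tlr3* with *Tlr13* the lowest, at 0.31. These correlations are descriptions over libraries that share their scaling.

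*Tlr3*, the receptor for double-stranded RNA (chr8:45395665-45411080, minus strand), ranked just below *Tlr2* in PBS muscle per kilobase and showed a smaller difference. The HRS legs held 9.04, 9.47, 15.5, 8.65 and 8.29 and the contralateral legs 2.85, 4.24, 2.40, 3.73 and 4.79. The groups were separate, with a log2 difference of 1.38 ± 0.20 (SE; limma adjusted p = 8.04e-05). Under quantile normalization this difference was 0.97, below the threshold. The antisense gene *Gm45542*, which shares 381 exon bases with *Tlr3*, had a mean of 0.0152 over the libraries.

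**Figure D2:**
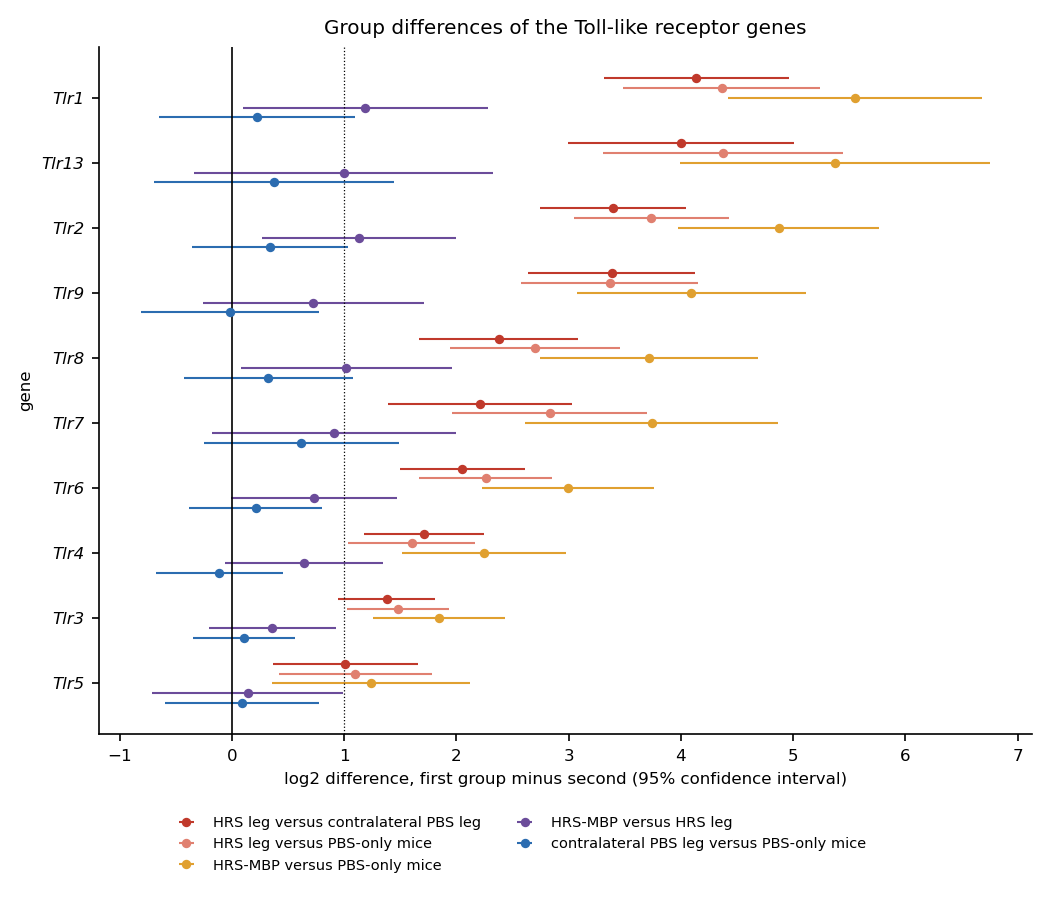
Log2 difference with its 95% confidence interval (x axis) for each receptor gene (y axis) in 5 comparisons from the 4-group fit, with a dotted line at the threshold of 1. The comparisons of HRS or HRS-MBP with PBS run from 1.01 for *Tlr5* to 5.55 for *Tlr1*, and the intervals of contralateral against PBS-only legs all include 0.

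Of the log2 differences to the contralateral legs, the 95% confidence intervals of the highest and the lowest did not overlap, at 3.31 to 4.96 for *Tlr1* and 0.37 to 1.65 for *Tlr5*, whereas *Tlr1* and *Tlr13*, *Tlr2* and *Tlr9*, and *Tlr6*, *Tlr7* and *Tlr8* lay close together beside their errors. No test of one member against another was run. Within mice the HRS leg was higher for 9 members in 5 of 5 mice, a pattern found in 26.3% of all genes. The median ratio over the 10 members was 13.8 in m862, 7.65 in m863, 8.90 in m864, 8.61 in m865 and 1.88 in m866. The HRS leg of m866 was the lowest of the 5 HRS legs for all 10 members, and that of m864 the highest for 8, the exceptions being *Tlr5* and *Tlr7*. The ratios of m866 were not evenly low. *Tlr1* and *Tlr9* differed between its legs by 15.7-fold and 11.8-fold, within the range of the other mice, whereas *Tlr3*, *Tlr4*, *Tlr6*, *Tlr7* and *Tlr8* differed by 1.35-fold to 2.03-fold. The mitochondrial share of this leg was 11.1%, the highest of the HRS legs. It was 9.69% to 11.2% in the contralateral legs and 11.3% to 13.1% in the PBS-only legs. The part of that share in these values was not tested.

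**Figure D3:**
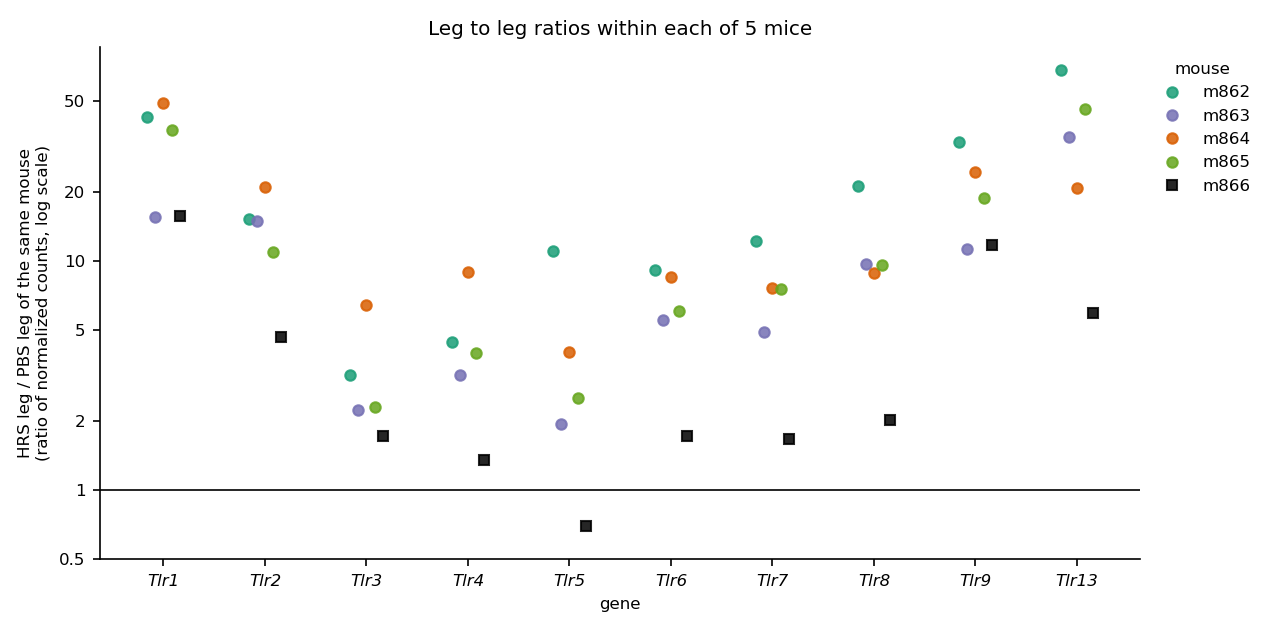
Ratio of the HRS leg to the PBS leg of the same mouse (log axis) for each receptor gene (x axis), with a symbol for each of 5 mice and a line at equal levels. The black squares of m866 lie lowest for 8 of the 10 genes and close to m863 for *Tlr1* and *Tlr9*.

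Because reads per gene scale with transcript length, levels were compared between members only per kilobase of exon. In the contralateral legs the order by mean was *Tlr2* at 1.09, *Tlr3* at 0.692, *Tlr4* at 0.575, *Tlr7* at 0.5003, *Tlr6* at 0.351, *Tlr1* at 0.260, *Tlr8* at 0.228, *Tlr13* at 0.223, *Tlr5* at 0.219 and *Tlr9* at 0.201. *Tlr2* exceeded *Tlr3*, and *Tlr3* exceeded *Tlr4*, in 5 of 5 libraries, while the last 5 differed by less than their SDs of 0.0865 to 0.153. In the HRS legs the order was *Tlr2* at 14.4, *Tlr1* at 7.89, *Tlr13* at 5.93, *Tlr9* at 3.70, *Tlr7* at 3.01, *Tlr4* at 2.07, *Tlr6* at 1.99, *Tlr3* at 1.96, *Tlr8* at 1.92 and *Tlr5* at 0.530. Here *Tlr2* exceeded *Tlr1*, and *Tlr1* exceeded *Tlr13*, in 5 of 5 libraries, whereas *Tlr4*, *Tlr6*, *Tlr3* and *Tlr8* lay within their SDs of one another. *Tlr3* held a median of 16.7% of the summed level of the family in the contralateral legs (10.3% to 21.8%) and 3.98% in the HRS legs (3.75% to 9.49%). *Tlr1* went the other way, from 6.40% (2.87% to 9.23%) to 17.7% (14.1% to 20.03%), shares that depend on the division of reads with *Tlr6*. *Tlr4* stood at 13.9% in the contralateral and 4.73% in the HRS legs, and *Tlr13* at 3.82% and 13.2%. The summed level per kilobase was 16.8 to 74.8 in the HRS legs, 2.52 to 5.25 in the contralateral legs, 2.16 to 4.24 in the PBS-only legs and 75.5 to 80.1 in HRS-MBP.

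**Figure D4:**
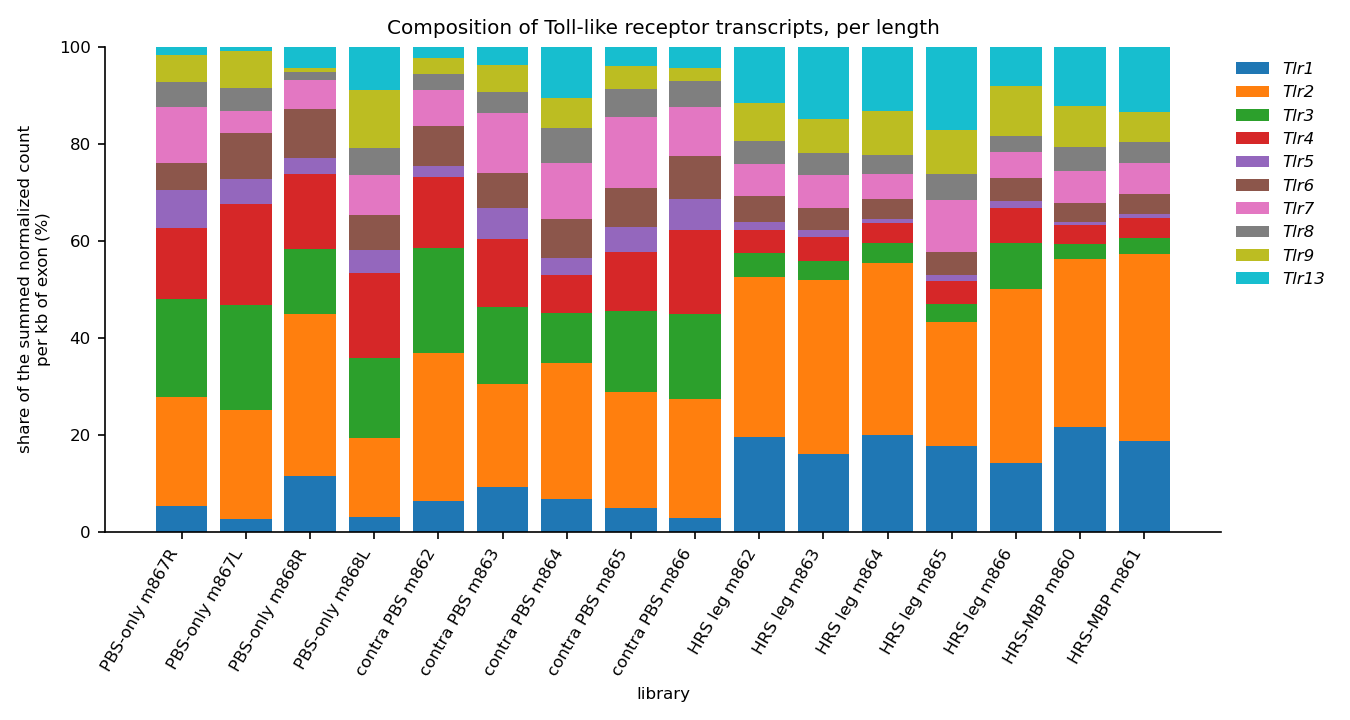
Share of each receptor gene in the summed normalized count per kilobase of exon (y axis, %) in each library (x axis), in 4 groups from PBS-only on the left to HRS-MBP on the right. *Tlr1* fills more of every HRS and HRS-MBP bar than of any PBS bar, and *Tlr3*, *Tlr4*, *Tlr5* and *Tlr6* more of every PBS bar. The ranges of *Tlr2* and *Tlr13* overlap between HRS and PBS legs. The shares of *Tlr1* and *Tlr6* depend on how their shared reads were divided.

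The contralateral PBS legs did not differ detectably from the legs of mice that had received only saline. With limma 0 of 10 members were called and 0 had an unadjusted p under 0.05, where 0.00609% of all genes were called in either direction and 902 genes had an unadjusted p under 0.05. The log2 differences lay between -0.11 for *Tlr4* and 0.62 for *Tlr7*, at adjusted p-values of 0.982 to 1, and 0 members were separate between the groups (2.3% of all genes). The intervals were wide, -0.25 to 1.49 for *Tlr7* and -0.68 to 0.45 for *Tlr4*. Differences of these sizes could not be told from 0 with 5 legs against 4, the latter from 2 mice. With the PBS-only legs averaged per mouse 0 members were called as well.

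In the HRS-MBP libraries 10 of 10 members were called higher than in the PBS-only legs, beside 20.7% of all genes, and for all 10 both libraries lay above all 4 PBS-only legs (39.8% of all genes). The log2 differences ran from 1.24 for *Tlr5* to 5.55 for *Tlr1*, with a median of 3.73. This comparison sets 2 mice against 2 mice. With the PBS-only legs averaged per mouse 10 of 10 members were called as well, in a setting where 4735 of the 16414 genes were called. Against the HRS legs all 10 differences were positive, between 0.14 and 1.19, but with limma 0 were called, beside 0.396% of all genes called higher. *Tlr1*, *Tlr2* and *Tlr8* had an unadjusted p under 0.05, as did 2371 of the 16414 genes, and the adjusted p-values of all 10 lay between 0.230 and 0.895. That count of 3 members was 7 without the HRS leg of m864, 2 without that of m866 and 0 without m860, without m861 or with only the libraries of both groups in the fit. For *Tlr2* the interval was 0.27 to 1.997. *Tlr2*, *Tlr4*, *Tlr6*, *Tlr7* and *Tlr8* were higher in both HRS-MBP libraries than in any HRS leg, 5 of 10 members where 7.1% of all genes showed this. That count rested on a single library. For *Tlr1*, *Tlr3*, *Tlr9* and *Tlr13* the HRS leg of m864 was the only HRS leg above an HRS-MBP library. The preparations differ in title and concentration, and with 2 libraries an effect of the fusion and one of those mice cannot be told apart. Without the HRS leg of m864, 1 member was called, *Tlr2* at a log2 difference of 1.39 (limma adjusted p = 0.0273), in a setting where 590 of the 16414 genes were called against 76 with all libraries.

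Genes that carry the receptors to their place or help them bind rose in part. Of 12 accessory and trafficking genes 7 were called higher and 0 lower in the HRS against the contralateral legs, with a median log2 difference of 1.18. They included *Cd180* at 3.66 and its partner *Ly86* at 3.20, *Unc93b1*, the chaperone of the endosomal receptors, at 3.10, *Cd14*, the lipopolysaccharide co-receptor, at 2.78, *Lbp* at 1.66, *Ly96*, which encodes MD-2, at 1.29 and *Cnpy3* at 1.07. *Hsp90b1*, a folding chaperone of the receptors, stood at 0.95, below the threshold, and *Cd36* at -0.48 (limma adjusted p = 0.0768). The mean of *Ly96* was 2.51 ± 0.645 in HRS legs and 0.721 ± 0.210 in contralateral legs (SD, n = 5), and that of *Unc93b1* 206.7 ± 109.7 and 21.8 ± 6.75.

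Of 6 adaptor genes 4 were called higher. *Myd88*, the adaptor of all members but *Tlr3*, stood at 1.93 ± 0.18 (SE), *Ticam1*, which encodes TRIF and serves *Tlr3* and *Tlr4*, at 1.42 ± 0.20, *Ticam2*, its bridge to *Tlr4*, at 2.59 ± 0.34, and *Pik3ap1*, a bridge to phosphoinositide signalling, at 3.69 ± 0.28. *Tirap*, the bridge of *Tlr2* and *Tlr4* to MyD88, was at -0.50 ± 0.18 and *Sarm1* at 0.40 ± 0.17, and neither was called. Of 16 kinases and ubiquitin ligases of the pathway 3 were called higher, a share near the 16.9% of all genes, with a list median of 0.35. That count ran from 2 to 4 over the alternatives. *Ikbke* led at 3.83. *Irak4* at 1.62 and *Irak2* at 1.05 are named after their values were seen, and *Irak1*, of the same kinase family and also listed, was not called. Of 10 transcription factor genes 6 were called, led by *Irf8* at 3.32, and of 5 endosomal proteases that trim receptors 4 were called, led by *Ctss* at 4.75.

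Inhibitors of the pathway were called higher for 7 of 13 genes, with a median of 1.19. *Lilrb4a* stood at 3.84, *Socs1* at 2.76, *Irak3*, a kinase-dead brake, at 2.14, *Tnfaip3*, the ubiquitin editor A20, at 1.96, *Socs3* at 1.74, *Nfkbia* at 1.31 and *Trafd1* at 1.19. *Tollip* at -0.15, *Rnf216* at 0.08, *Cyld* at 0.26, *Tnip1* at 0.39, *Sigirr* at 0.44 and *Il1rl1* at 0.90 were not called. Of 10 genes for endogenous ligands 7 were called higher, led by *Tnc*, the matrix protein tenascin-C, at 4.81. Of 17 target genes listed 14 were tested, as *Ifnb1* was absent from the deposited values and the others fell under the filter on low values. Of the 14 tested, 13 were called higher and 1 lower, with *Acod1*, the itaconate-making enzyme of activated macrophages, at 5.91. Of those called higher, 8 targets and 2 ligands passed the filter on low values only through the HRS or HRS-MBP libraries. *Il12a*, a subunit of interleukin-12, was the target called lower, at -1.03, a call that was lost without the HRS leg of m862, without the contralateral leg of m862, m863 or m865 and at a pseudocount of 2, and that was not made against the PBS-only legs (-0.99). Nucleic acid sensors outside the family were called higher for 7 of 8 present in the deposited values (11 symbols listed), led by *Zbp1* at 3.39. Endosomal nucleases were called higher for 4 of 7 tested (8 listed), led by *Pld4* at 2.95. Without both legs of m866 the accessory genes and the inhibitors called higher became 8 each, and the counts of the adaptors, kinases, transcription factors, proteases, ligands, targets, other sensors and nucleases did not change. Under quantile normalization 6 accessory genes, 2 kinases, 12 targets, 5 proteases and 8 ligands were called higher.

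**Figure D5:**
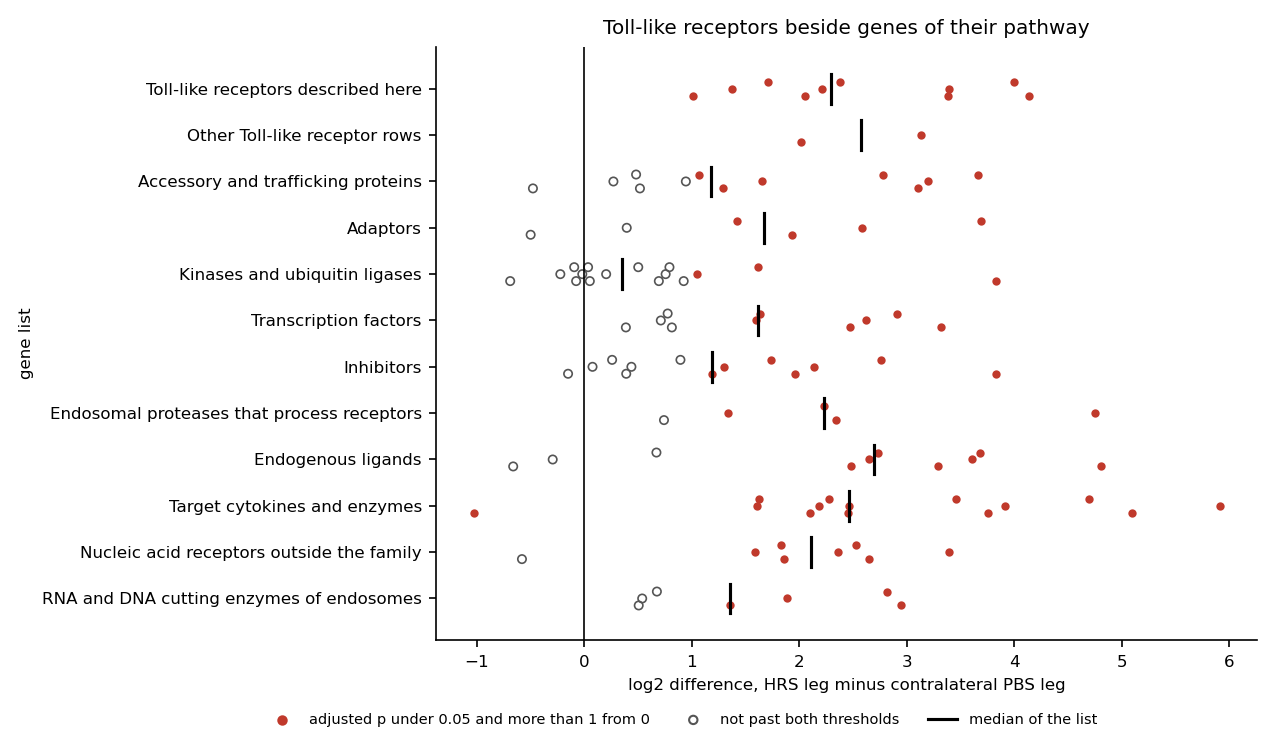
Log2 difference between HRS and contralateral PBS legs (x axis) for each gene of the receptor family and of 11 lists of pathway genes (y axis), with filled points for called genes, open points for the others and a bar at each list's median. The 10 receptors lie between 1.01 and 4.14, whereas the kinases and ubiquitin ligases centre at 0.35.

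Markers of the cells that carry these receptors moved with them. Of 10 macrophage and monocyte markers 9 were called higher, led by *Ly6c2* at 4.14, and 1 lower, the resident macrophage scavenger receptor *Cd163* at -1.57. Their summed level was 1053 to 5278 in the HRS legs, 105 to 283 in the contralateral, 104 to 220 in the PBS-only and 4123 to 4434 in the HRS-MBP libraries. Per 1000 of that sum the family's summed level per kilobase was 13.2 to 16.9 in the HRS legs, 15.8 to 24.0 in the contralateral legs, 18.0 to 24.5 in the PBS-only legs and 18.1 to 18.3 in HRS-MBP. Among tested genes, called higher were also 6 of 6 neutrophil (7 listed), 4 of 6 conventional and 5 of 5 plasmacytoid dendritic cell markers. So were 4 of 5 B cell (6 listed), 6 of 6 T cell and 5 of 5 NK cell markers. For fibroblasts the count was 3 of 5 and for satellite cells 1 of 3. Of those called, 5 neutrophil, 1 conventional and 2 plasmacytoid dendritic cell, 4 B cell, 4 T cell and 5 NK cell markers had a mean under 0.5 in both PBS groups and so passed the filter on low values only through the groups where they were high, as did 19.8% of all genes called higher, and their counts are given as descriptions. None of the macrophage and monocyte or fibroblast markers and none of the 10 receptors passed in that way. Where 6.27% of all genes were called lower, 4 of 4 adipocyte markers were, as were 3 of 6 muscle fibre markers, but against the PBS-only legs 0 of 4 and 1 of 6 were called lower, and 0 of 5 endothelial markers were called either way against the contralateral legs. The adipocyte markers summed to 3206 in the contralateral leg of m866 and to 222 to 506 in the other contralateral legs. The muscle fibre count rested on single libraries, being 6 of 6 without both legs of m866, 5 without its HRS leg alone, 0 or 1 without any of the HRS legs of m863 to m865 or the contralateral legs of m862 to m865, and 0 with the mouse as a replicate block or under quantile normalization. The adipocyte count was 1 of 4 without the HRS leg of m864, and 2 without the HRS leg of m865 or the contralateral leg of m866. The B cell count was 2 of 5 without the HRS leg of m864, 2 under quantile normalization, 1 with array quality weights and 0 at a pseudocount of 2. The plasmacytoid count was 3 of 5 under quantile normalization and at a pseudocount of 2, where the neutrophil count was 3 of 6. The neutrophil markers summed to 10.3 to 123.5 in the HRS legs and 1.03 to 3.51 in the contralateral legs, where *Ly6g* was at 0 in every library. The part of these cells in the receptor levels was not tested.

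The genes whose values ran most like each member over the 16 libraries, by Pearson correlation on the log2 scale, were *Lair1* for *Tlr1* (0.993), *Fermt3* for *Tlr2* (0.997), *C1s1* for *Tlr3* (0.985), *Naip2* for *Tlr4* (0.991), *Sash1* for *Tlr5* (0.962), *Sirpa* for *Tlr6* (0.996), *Man1c1* for *Tlr7* (0.989), *Mast3* for *Tlr8* (0.992), *Ccl22* for *Tlr9* (0.988) and *Cd68* for *Tlr13* (0.993). The libraries share their group differences, so high values are common. Between 591 and 1512 genes exceeded 0.95 for 9 members, but 6 genes did for *Tlr5*. By deviations from the group means, *Man1c1* was again the closest to *Tlr7* (0.963), and *Clic1* to *Tlr6* (0.9751).

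Promoter windows from RefSeq (GRCm38.p6), 250 bases before to 50 bases after the gene start, covered 8 of the 10 members with 10 windows. They were searched on both strands for GAGGAAGT (PU.1, the master factor of myeloid cells), the interferon regulatory factor (IRF) motif of paired GAAA boxes, TTCNNNGAA (STAT factors), the NF-κB motif, TGACGTCA (CREB) and TGACTCA (AP-1). Printed are *Tlr1* and *Tlr9*, which hold the PU.1 letters, *Tlr6*, the neighbour of *Tlr1*, and *Tlr5*, the member with the smallest difference, each to 30 bases after the start, with matches in capitals.
Tlr1 promoter, chr5:64933529-64933808, minus strand: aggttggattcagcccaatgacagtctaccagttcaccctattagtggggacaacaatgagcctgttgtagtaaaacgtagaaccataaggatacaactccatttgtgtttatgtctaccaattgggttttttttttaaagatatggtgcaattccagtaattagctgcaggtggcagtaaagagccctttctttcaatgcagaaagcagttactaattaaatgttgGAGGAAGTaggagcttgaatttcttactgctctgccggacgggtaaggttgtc
Tlr6 promoter, chr5:64960019-64960298, minus strand: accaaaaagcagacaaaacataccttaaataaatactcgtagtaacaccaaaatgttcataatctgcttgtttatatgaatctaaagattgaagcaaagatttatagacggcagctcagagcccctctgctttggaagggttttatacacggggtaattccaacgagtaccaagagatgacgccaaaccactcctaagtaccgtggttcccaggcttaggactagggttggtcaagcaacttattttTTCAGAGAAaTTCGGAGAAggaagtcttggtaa
Tlr9 promoter, chr9:106222348-106222627, plus strand: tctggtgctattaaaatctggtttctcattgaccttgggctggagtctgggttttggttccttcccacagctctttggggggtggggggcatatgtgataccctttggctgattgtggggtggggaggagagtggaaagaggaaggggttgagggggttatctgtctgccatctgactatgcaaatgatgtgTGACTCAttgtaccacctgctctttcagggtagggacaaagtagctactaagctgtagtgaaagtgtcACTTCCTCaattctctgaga
Tlr5 promoter, chr1:182954538-182954817, plus strand: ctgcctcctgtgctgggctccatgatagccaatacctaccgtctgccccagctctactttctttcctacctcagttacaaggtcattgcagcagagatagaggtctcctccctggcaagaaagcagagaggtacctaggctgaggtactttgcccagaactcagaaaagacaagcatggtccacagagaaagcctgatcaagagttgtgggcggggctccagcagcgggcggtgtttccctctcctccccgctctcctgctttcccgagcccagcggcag
The PU.1 letters begin 23 bases before the start of *Tlr1* and, on the opposite strand, 10 bases after that of *Tlr9*, where 3.20% of 32851 windows hold them. *Tlr9* also holds the AP-1 letters, 58 bases before its start (5.20% of windows). The window of *Tlr6* holds 2 matches to TTCNNNGAA, beginning 3 bases before and 7 bases after the start, and the windows of *Tlr8* and of the other start of *Tlr1* hold 1 each (8.30% of windows). At another start of *Tlr6*, 2 overlapping matches to the IRF motif lie on the opposite strand (3.44% of windows). This window alone matched no GENCODE transcript of its gene, either by the bases after its start or by the transcript's first bases. No match was found in the windows of *Tlr2*, *Tlr3*, *Tlr5* and *Tlr13*. A match states only that the letters are present.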

How the data were processed

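The authors deposited normalized counts per gene, a linear signal, for 16 bulk libraries of hamstring muscle made with a directional poly(A) kit. Per the labels the reads were processed with STAR 2.7.8a and limma against GRCm39 (mm39); the counting program, annotation and scaling are not given in the sources used here. The table's coordinates are those of GRCm38: of 25652 genes matched to GENCODE M21 by symbol and chromosome, 98.9% had the same start and an end 1 base larger, and the ends given here are 1 base less. Between 69.7% and 73.5% of low values per library were whole multiples of 1 read (tolerance 0.02), which is too few to recover the reads, and count models were left aside. Floors of 3 reads cover counting error only.

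Groups followed the titles, mouse numbers and treatment labels. Genes whose mean over all libraries reached 0.5 (16414, all 10 members among them, so no member needed a separate test) were fitted as log2(value + 0.5) in 1 model of 4 groups with limma 3.58.1 in R 4.3.3 (eBayes with trend), with Benjamini-Hochberg adjustment over all genes tested. A call required an adjusted p under 0.05 and a log2 difference over 1. A fold on this scale understates low genes. The fit was first tested on simulated data. No libraries held identical values. The legs of 1 mouse are paired by label, although their deviations from the group means correlated weakly (0.119, 0.163, 0.097, -0.026 and -0.366 for m862 to m866). Nothing says that libraries of 1 group were otherwise handled separately, so p-values measure the spread between these libraries.

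Named were all members, the gene with the largest rise and fall in each pathway list and in the macrophage and monocyte list, and the gene most like each member. Any gene of the accessory, adaptor and inhibitor lists could be named. *Irak1*, *Irak2*, *Irak4*, *Ifnb1*, *Ly6g* and *Gm45542* were named outside this rule. The members and lists were chosen with earlier results of these data known. Exon lengths came from GENCODE M21 and promoters from RefSeq. Alternatives were smaller and larger pseudocounts, other filters, scalings, weights, leaving out each library, the mouse as a block, and, chosen after seeing the data, leaving out m866 and adding *Tlr1* to *Tlr6*.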

Additional observations from a re-analysis of the deposited data

Results flagged for a closer look

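Of 30 sets of values searched (10 receptor genes in the HRS, contralateral and PBS-only groups), 3 held a library whose gap to its nearest neighbour, divided by the range of the group, passed Dixon's critical value. Chance flags about 1 in 20 independent sets, but these sets share libraries. *Tlr3* was 15.5 in the HRS leg of m864, while the other 4 HRS legs lay between 8.29 and 9.47. *Tlr5* was 1.12 in the HRS leg of m866, below the other HRS legs at 2.69 to 3.08. *Tlr7* was 0.769 in the contralateral leg of m862, below the other contralateral legs at 2.12 to 2.60.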

How the results depend on the processing

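Of 103 counts of called members under alternatives, 101 stayed within 1.5 times the value reported, and the exceptions were both in HRS-MBP against HRS legs, where 0 members were called. With array quality weights 1 member was called there (*Tlr1*), in a setting where 886 of the 16414 genes were called. Without 1 library the count ran from 0 to 1 (*Tlr2* without the HRS leg of m864, where 590 genes were called). With all libraries and no weights 76 genes were called. Against the contralateral legs, 9 members were called with the mouse as a replicate block, *Tlr5* being lost at a log2 difference of 1.01 (adjusted p = 0.0522), and the block changed no other member's call. *Tlr5* was lost in 11 of 22 settings in that comparison, in 5 of 21 against PBS-only legs and in 4 of 17 for HRS-MBP, at a pseudocount of 2 and under quantile normalization in all 3, and was not tested at a filter of a mean of 2. Quantile normalization moved the median of all genes from 0.08 to -0.16 and the share of higher among called genes from 73.0% to 56.2% (from 76.3% to 54.5% against PBS-only legs and from 67.0% to 47.3% for HRS-MBP). *Tlr3* was lost in no other setting, against contralateral and PBS-only legs alike. TMM scaling gave a higher share of 66.1% against PBS-only legs. Sign changes fell on differences near 0. For contralateral against PBS-only legs, array quality weights gave -7.0e-05 for *Tlr3* and -0.10 for *Tlr5*, a smaller pseudocount gave 0.0684 for *Tlr9*, and leaving out both legs of m866 gave -0.0466 for *Tlr5* and 0.0339 for *Tlr9*. Without 1 library, these differences ran from -0.0075 to 0.51 for *Tlr1*, -0.0111 to 0.23 for *Tlr3*, -0.28 to 0.0188 for *Tlr4*, -0.0476 to 0.32 for *Tlr5* and -0.33 to 0.30 for *Tlr9*. For HRS-MBP against HRS legs, *Tlr5* was -0.0673 with array quality weights and -0.0716 to 0.32 without 1 library. The causes were not tested. Depth limits *Tlr8* and *Tlr9* in the right leg of m868, at 2 and 1 reads, and *Tlr13* in the left leg of m867, at 2 reads.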

Other observations

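The remaining receptors of the family in mice, *Tlr11* and *Tlr12*, which bind protozoan profilin and have no working human counterpart, were also called higher in HRS legs than in contralateral legs. *Tlr11* ran from 1.82 to 7.61 in the HRS legs and 0.256 to 0.369 in the contralateral legs (log2 difference 2.02 ± 0.30, SE; limma adjusted p = 8.13e-05). *Tlr12* ran from 1.34 to 21.4 in the HRS legs and from 0 to 0.188 in the contralateral legs, and 2 of 4 PBS-only legs were at 0 (log2 difference to the contralateral legs 3.13 ± 0.45, SE; limma adjusted p = 7.15e-05). In the HRS-MBP libraries they reached 7.01 to 7.82 and 14.5 to 16.9. The *Tlr12* level of 21.4 belonged to m864, whose HRS leg was also the highest for 8 of the 10 receptors described above. Both genes reached the filter on low values only through the HRS and HRS-MBP libraries, their mean in each PBS group being between 0.0505 and 0.297, so their calls add no support to those of the other members.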
